A study of Arabidopsis thaliana with 9 samples.

Results

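The genes described here are those that prepare and copy DNA in S phase, namely the E2F and DP transcription factors, the replication licensing proteins, the DNA polymerases with their clamp, the enzymes of deoxynucleotide supply and the subunits of chromatin assembly factor 1 (CAF-1). The members are the 37 Arabidopsis thaliana loci of a list of gene names, to which no threshold on the measured values was applied, and 32 of the 37 were among the 21430 loci measured. MCM6, ORC1A, ORC1B, RFC1 and DEL1 were not analysed here. Expression was measured on 9 arrays in cells of the quiescent centre (QC), the slowly dividing cells at the centre of the root stem cell niche. All plants, the mock group included, were plt1 plt2 double mutants that carried the complementing, dexamethasone-inducible PLT2::PLT2-GR construct and the sorting reporter WOX5::erGFP. PLT2 is an AP2-type transcription factor of the root meristem, and dexamethasone lets its fusion to the glucocorticoid receptor (GR) enter the nucleus. Seedlings of 5 days were kept on 10 µM dexamethasone for 4 h (3 arrays) or 1 h (3 arrays), or on solvent alone for 1 h (mock, 3 arrays). No mock group of 4 h and no dexamethasone group without the construct was among the arrays. At 4 h the fusion's release, the agent and the longer stay on the plate thus cannot be told apart. At 1 h the fusion's release and the agent cannot be told apart.

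In G1, the origin recognition complex (ORC) marks replication origins, and CDC6 and CDT1 load the MCM2 to MCM7 helicase onto them. CDC45, the GINS complex and MCM10 turn the helicase on at the start of S phase, and polymerases held by the ring-shaped clamp PCNA then copy the strands from deoxynucleotides that ribonucleotide reductase supplies. E2F factors, paired with DP proteins and held in check by the retinoblastoma protein RBR1, are known regulators of many of these genes, and root meristem cells that divide often express them. QC cells divide rarely.

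Values are log2 expression per probe set, so a difference of 1 is a change of 2-fold, and differences are given as log2 units ± standard error of the model unless SD is stated. Each group is 3 arrays that the labels call biological replicates, and p-values measure the spread among them. A gene was called at a Benjamini-Hochberg adjusted p under 0.05 over all 21430 loci, from one limma model of the 9 arrays. Replicate 1 at 4 h stood apart in the mean log2 level of 12 probe sets for added poly-A control RNA, at 8.76, while the other 8 arrays lay between 6.03 and 6.57. The arrays at 4 h also differed among themselves over all loci. On the first principal component, the main axis of variation (48.9% of the variance), replicates 1, 2 and 3 at 4 h stood at -40.65, -27.32 and -4.25. The 1 h and mock arrays lay between -0.6 and 19.55. PLT2 and PLT1 were not called at 4 h against mock (-0.02 ± 0.16 and 0.09 ± 0.09) or at 1 h (0.34 ± 0.16 and 0.01 ± 0.09); the stretch of each gene that its probe set reads was not known here. Of the 6 QC markers listed, 5 were measured. SCR had a mean log2 level of 8.72 at 4 h, 8.71 at 1 h and 8.55 in mock, and AGL42 lay below the first quartile of all loci on all 9 arrays. BRAVO, a further QC marker, rose at 4 h by 0.70 ± 0.19 (limma adjusted p = 0.0461); its levels were 6.82, 6.31 and 5.99 at 4 h, 6.07, 5.96 and 6.13 at 1 h, and 5.94, 5.39 and 5.69 in mock, so both dexamethasone groups lay above all mock arrays. It was the only 1 of the 5 called at 4 h (20.0%, beside 10.8% of all loci), and none was called at 1 h, beside 0.187% of all loci. The median difference of the 5 at 4 h was 0.02, beside 0.01 over all loci. WOX5 was not analysed here.

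After 4 h, the genes of ribonucleotide reductase rose and the licensing gene CDT1A fell, while no E2F or DP gene, MCM gene, ORC gene or CAF-1 gene was called. In all, 3 of the 32 members rose (RNR1, RNR2A and TSO2), 1 fell (CDT1A) and 28 were not called. The share called, 12.5%, lies near the 10.8% called among all loci (5.53% up and 5.23% down), so the count does not set these genes apart. An unadjusted p under 0.05 was reached by 10 members upward and 2 downward, beside 13.1% and 13.7% of all loci. The median difference of the members was 0.15, beside 0.01 over all loci, and 24 of the 32 members (75.0%) lay above 0, as did 52.1% of all loci. The 3 arrays at 4 h all lay above the 3 mock arrays for 7 members (21.9%, beside 14.3% of all loci), and all below them for 2 members (6.25%, beside 13.4%). The heat map of all members shows these shifts array by array.

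**Figure D1:**
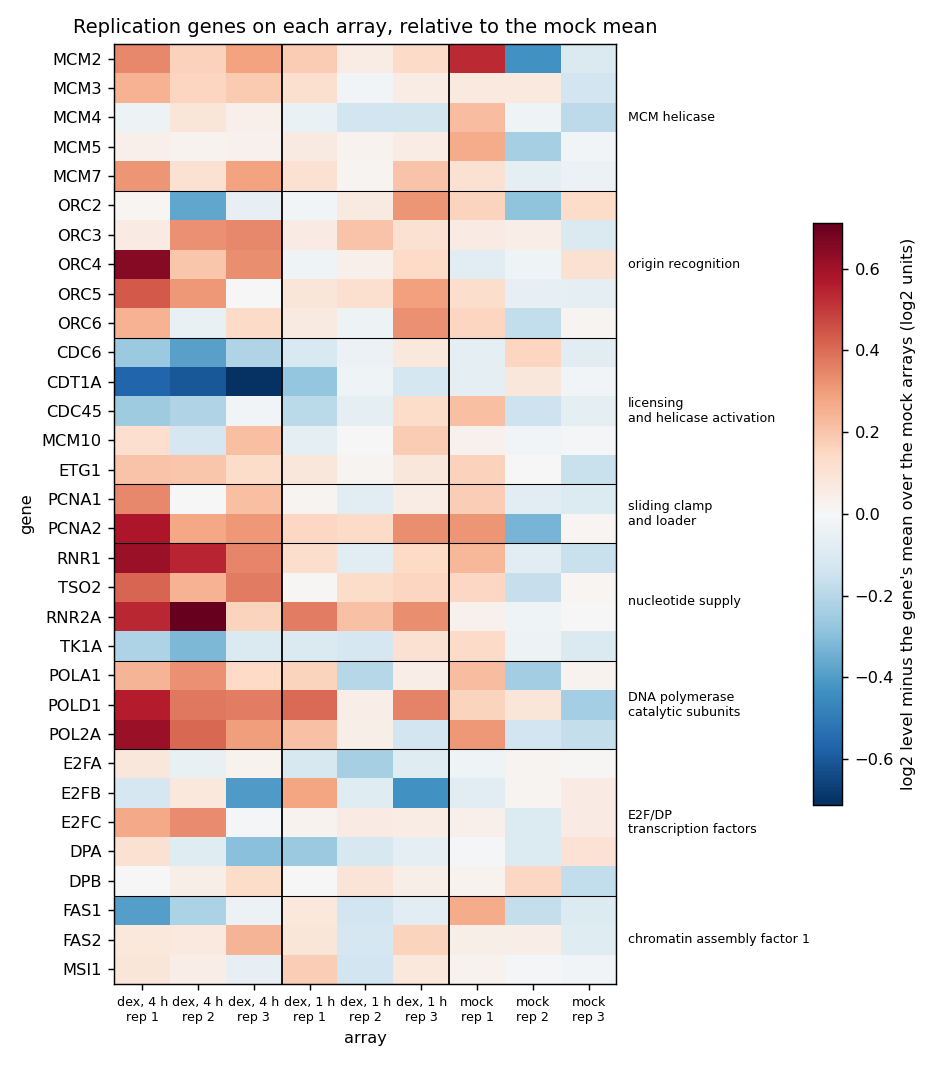
Each row is 1 of the 32 measured members, grouped by role, and each column is 1 array; colour gives the log2 level minus that gene's mean over the 3 mock arrays, on a scale symmetric about 0. CDT1A is blue on all 3 arrays at 4 h, RNR1, RNR2A and TSO2 are red on all 3, and mock replicate 1 is red for most members.

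Ribonucleotide reductase makes deoxynucleotides from ribonucleotides, with RNR1 as its large subunit and RNR2A and TSO2 as small subunits. RNR1 (AT2G21790) had log2 levels of 9.30, 9.24 and 9.04 at 4 h, 8.82, 8.61 and 8.83 at 1 h, and 8.93, 8.61 and 8.53 in mock. The 3 values at 4 h lay above the other 6, which overlapped, and RNR1 rose at 4 h by 0.50 ± 0.12 (limma adjusted p = 0.0275), a 1.42-fold rise. RNR2A (AT3G23580) had levels of 8.79, 8.97 and 8.41 at 4 h, 8.62, 8.47 and 8.58 at 1 h, and 8.29, 8.22 and 8.26 in mock. Here both dexamethasone groups lay above all mock arrays and overlapped with each other, mock was tight (SD 0.031) and 4 h was wide (SD 0.284). RNR2A rose at 4 h by 0.47 ± 0.13 (limma adjusted p = 0.0409), a 1.38-fold rise. TSO2 (AT3G27060) had levels of 10.19, 10.02 and 10.14 at 4 h, 9.78, 9.90 and 9.93 at 1 h, and 9.93, 9.61 and 9.79 in mock. The 4 h group again lay above the other arrays, and TSO2 rose by 0.34 ± 0.10 (limma adjusted p = 0.0493), just inside the threshold. TK1A (AT3G07800), a thymidine kinase that salvages thymidine, did not share this pattern of values. Its levels were 7.400, 7.299 and 7.517 at 4 h, 7.517, 7.497 and 7.727 at 1 h, and 7.754, 7.584 and 7.517 in mock, a difference of -0.21 ± 0.10 at 4 h that was not called.

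The calls for ribonucleotide reductase were lost in several settings, and not only without an array of the 2 groups compared. Without replicate 1 at 1 h, which left their differences unchanged, RNR2A and TSO2 had a limma adjusted p of 0.0548 and 0.0604. With only the 2 groups fitted, none of these genes was called. RNR1 passed in 12 of 17 alternative settings, and its adjusted p was 0.0835 without replicate 1 at 4 h, 0.0812 without replicate 2 at 4 h, 0.105 without mock replicate 2 and 0.102 without mock replicate 3. RNR2A passed in 7 of 17 and, with single arrays left out, only without replicate 3 at 4 h (adjusted p = 0.0025); its largest p with 1 array left out was 0.13, without mock replicate 2. TSO2 passed in 4 of 17 and, with single arrays left out, only without mock replicate 1 (adjusted p = 0.0467), up to 0.169 without mock replicate 2. The difference stayed above 0 in every setting, at 0.42 to 0.62 for RNR1, 0.35 to 0.63 for RNR2A and 0.26 to 0.42 for TSO2.

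**Figure D2:**
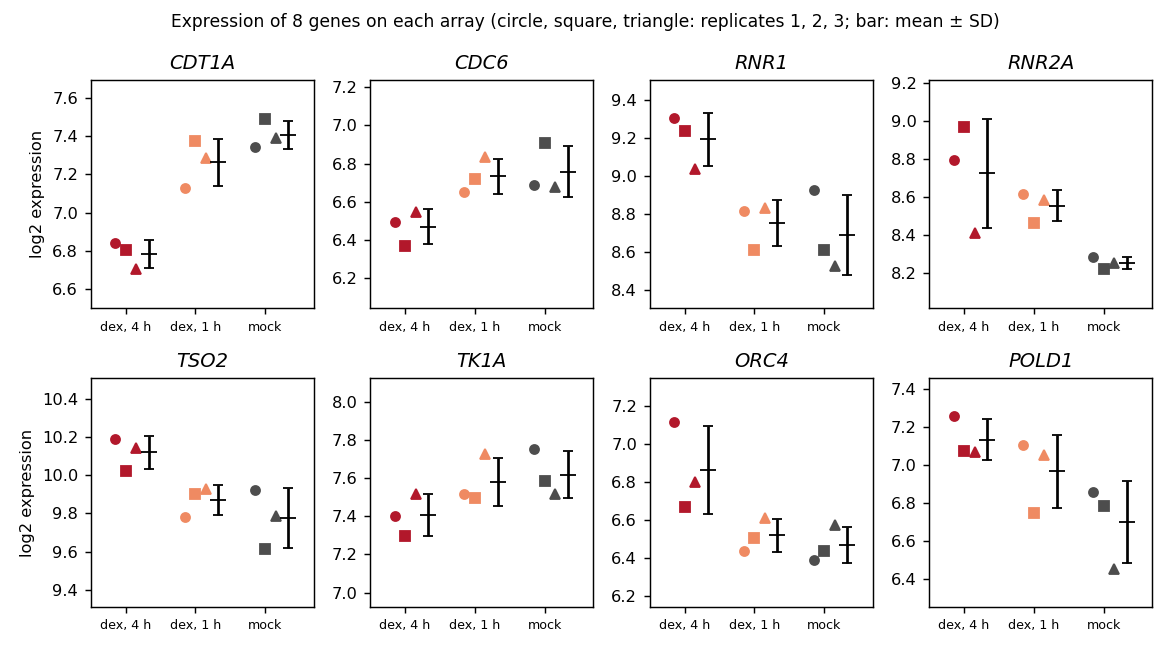
Log2 expression (vertical axis, 1.2 units high in every panel) of 8 members on each array, with circles, squares and triangles for replicates 1, 2 and 3 and black bars for the mean ± SD of 3 arrays. CDT1A and CDC6 at 4 h lie below all other arrays, and RNR1, TSO2 and ORC4 at 4 h lie above all other arrays.

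CDT1A, which with CDC6 loads the MCM helicase, had the smallest adjusted p of the members. CDT1A (AT2G31270) had log2 levels of 6.84, 6.80 and 6.70 at 4 h, 7.13, 7.38 and 7.28 at 1 h, and 7.34, 7.49 and 7.39 in mock. Every array at 4 h lay below the 6 others, whereas the 1 h and mock groups overlapped. CDT1A fell by 0.63 ± 0.09 against mock (limma adjusted p = 0.00461), to 0.648 of the mock level, and this call passed in all 17 alternative settings (adjusted p 0.00329 to 0.0272). It also fell against 1 h, by 0.48 ± 0.09 (adjusted p = 0.0388), a call that among the fits without 1 array passed only without replicate 3 at 4 h (0.0202) and otherwise had an adjusted p of 0.0545 to 0.179. CDC6 (AT2G29680), its loading partner, had levels of 6.50, 6.37 and 6.54 at 4 h, 6.65, 6.72 and 6.83 at 1 h, and 6.69, 6.91 and 6.68 in mock. CDC6 at 4 h was thus also below all 6 other arrays, but its difference of -0.29 ± 0.10 was not called (adjusted p = 0.0793).

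The other members of this step act when the loaded helicase is turned on or handled afterwards. CDC45 differed from mock by -0.16 ± 0.12 at 4 h and MCM10 by 0.07 ± 0.10, and both groups overlapped with mock. ETG1 (AT2G40550), an MCM-binding protein named as an E2F target, had levels of 8.07, 8.06 and 7.99 at 4 h, 7.94, 7.88 and 7.94 at 1 h, and 8.02, 7.86 and 7.70 in mock. Its 4 h arrays lay above those of 1 h but not above mock replicate 1, and the difference from mock, 0.18 ± 0.09, was not called.

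None of the 5 measured genes of the MCM2 to MCM7 helicase was called at 4 h. All 5 differences lay above 0, as did 52.1% of all loci, and ran from 0.03 for MCM4 and MCM5 to 0.26 for MCM2. MCM4 stood at -0.06 without mock replicate 3 and MCM5 at -0.09 without mock replicate 2, and MCM2 was called up only without mock replicate 1. limma called 0 of them, beside 10.8% of all loci. An unadjusted p under 0.05 was reached by 2, both upward (MCM3 at 0.20 ± 0.09 and MCM7 at 0.24 ± 0.09), beside 13.1% of all loci upward. MCM3 had levels of 8.46, 8.37 and 8.40 at 4 h, 8.33, 8.19 and 8.27 at 1 h, and 8.28, 8.28 and 8.08 in mock, with the 4 h group above the others. MCM2 had levels of 7.165, 6.986 and 7.110 at 4 h, 7.001, 6.873 and 6.959 at 1 h, and 7.355, 6.394 and 6.718 in mock. The mock arrays of MCM2 thus spanned both dexamethasone groups (SD 0.489 in mock, 0.092 at 4 h and 0.065 at 1 h), and its 95% interval at 4 h, -0.16 to 0.69, leaves room for a rise as large as that of RNR1. For MCM5 the pattern was the same, with an SD of 0.251 in mock and 0.006 at 4 h.

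The measured ORC genes encode subunits 2 to 6. limma called 0 of the 5 at 4 h, beside 10.8% of all loci. An unadjusted p under 0.05 was reached by 2, both upward (ORC3 and ORC4), beside 13.1% of all loci upward. ORC4 (AT2G01120) came nearest to the threshold, with levels of 7.12, 6.67 and 6.80 at 4 h, 6.44, 6.51 and 6.61 at 1 h, and 6.39, 6.44 and 6.58 in mock. The 4 h group lay above all other arrays, with a difference from mock of 0.39 ± 0.12 (adjusted p = 0.0564), and ORC4 was called up in 3 of the 17 alternative settings, namely without dim probe sets and without replicate 2 or replicate 3 at 4 h. ORC5 was called up only without replicate 3 at 4 h. ORC3 differed by 0.24 ± 0.10, ORC5 by 0.25 ± 0.12, ORC6 by 0.11 ± 0.12 and ORC2 by -0.14 ± 0.15, each with groups that overlapped.

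The catalytic subunits of the 3 replicative polymerases, POLA1 (alpha, which starts new strands), POLD1 (delta) and POL2A (epsilon), had differences above 0 at 4 h without a call. Among all loci, 52.1% lay above 0 and 10.8% were called. POLD1 and POL2A had an unadjusted p under 0.05, both upward, beside 13.1% of all loci upward. POLD1 (AT5G63960) had levels of 7.26, 7.08 and 7.07 at 4 h, 7.10, 6.75 and 7.05 at 1 h, and 6.86, 6.78 and 6.46 in mock. Its 4 h arrays lay above mock but overlapped with 1 h, and the difference from mock was 0.43 ± 0.13 (adjusted p = 0.0572), called without dim probe sets and with the replicate number as a block. POL2A (AT1G08260) had levels of 7.902, 7.697 and 7.584 at 4 h, 7.499, 7.329 and 7.155 at 1 h, and 7.597, 7.153 and 7.117 in mock. Mock replicate 1 again reached into the 4 h range, and the difference of 0.44 ± 0.14 was not called (adjusted p = 0.0783) except without mock replicate 1, without replicate 3 at 4 h or with the replicate number as a block. POLA1 differed by 0.24 ± 0.13. The clamp genes PCNA1 and PCNA2 differed from mock by 0.19 ± 0.11 and 0.39 ± 0.15 and were not called, beside 10.8% of all loci called. Of these, PCNA2 had an unadjusted p under 0.05, beside 13.1% of all loci upward. PCNA1 and PCNA2 are close paralogs, and without the probe set definition, signal shared between them cannot be recognised. PCNA2 had levels of 10.01, 9.70 and 9.74 at 4 h, 9.58, 9.57 and 9.76 at 1 h, and 9.74, 9.10 and 9.45 in mock, so the 3 groups overlapped.

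The E2F and DP genes differed little from mock. E2FA and E2FB are activators of S-phase genes, E2FC is known as a repressor, and DPA and DPB are their partners. limma called 0 of the 5 at 4 h, beside 10.8% of all loci, and none had an unadjusted p under 0.05, beside 26.8% of all loci. E2FA (AT2G36010) had levels of 7.02, 6.89 and 6.97 at 4 h, 6.82, 6.70 and 6.85 at 1 h, and 6.91, 6.96 and 6.95 in mock. All 1 h arrays of E2FA lay below the arrays of both other groups, yet the difference at 1 h was only -0.15 ± 0.08, and at 4 h it was 0.02 ± 0.08 with a 95% interval of -0.16 to 0.19. E2FC differed from mock at 4 h by 0.20 ± 0.10 and was called up only without replicate 3 at 4 h. DPB differed by 0.06 ± 0.09, DPA by -0.09 ± 0.11 and E2FB by -0.15 ± 0.17. The widest interval was that of E2FB, -0.53 to 0.23, so a fall of the size of CDT1A's was just outside it. RBR1, the partner that represses E2F factors, was not called at either time (0.12 ± 0.12 at 4 h and 0.03 ± 0.12 at 1 h).

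CAF-1 deposits histones H3 and H4 behind the replication fork. Its subunit genes FAS1, FAS2 and MSI1 differed from mock at 4 h by -0.22 ± 0.13, 0.13 ± 0.10 and 0.03 ± 0.09. limma called 0 of the 3, beside 10.8% of all loci, and none had an unadjusted p under 0.05, beside 26.8% of all loci. FAS2 had levels of 5.85, 5.84 and 6.01 at 4 h, 5.86, 5.66 and 5.94 at 1 h, and 5.81, 5.82 and 5.69 in mock, so the 4 h arrays were above mock by a narrow gap. FAS1, in contrast, had 2 of the 3 lowest values over all arrays at 4 h (5.57, 5.74 and 5.92, against 6.23, 5.79 and 5.87 in mock). MSI1 also serves in other chromatin complexes. A further 13 genes of chromatin in S phase were listed, of which 11 were measured, and limma called 0 of these. An unadjusted p under 0.05 was reached by 2, both upward, beside 13.1% of all loci upward. These were the chromatin remodeller gene DDM1 at 0.33 ± 0.12 and the histone methyltransferase gene ATXR5 at 0.32 ± 0.09 (limma adjusted p = 0.0503). The 5 genes of the replication-linked histone H3.1 ranged from -0.07 to 0.13. Their mean log2 levels in mock ran from 5.59 to 11.46. Whether their probe sets share signal was not checked.

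**Figure D3:**
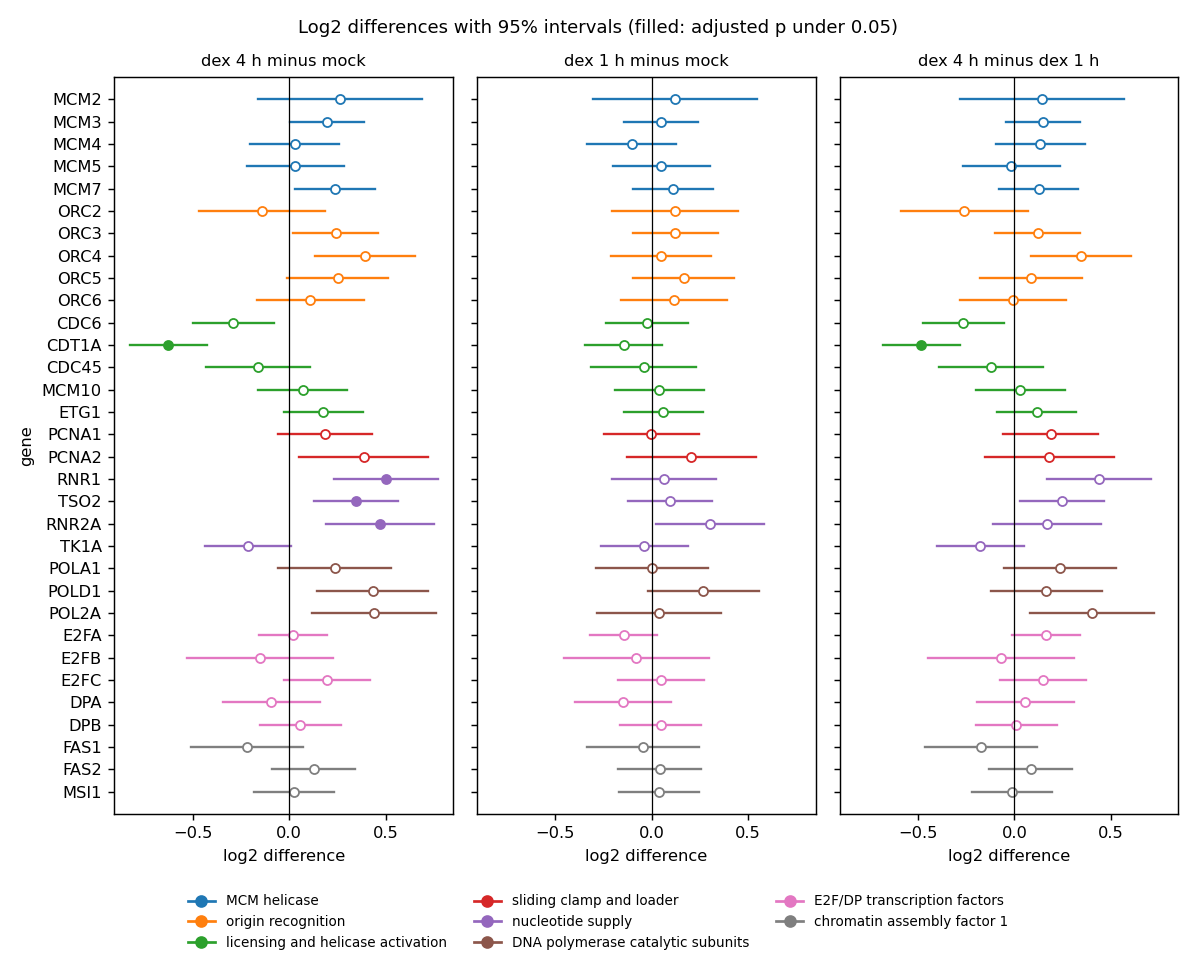
Log2 differences (horizontal axes) of the 32 members for 4 h minus mock, 1 h minus mock and 4 h minus 1 h, with 95% intervals from the limma model, filled circles for adjusted p under 0.05 and colours for roles. At 4 h against mock, RNR1, RNR2A and TSO2 are filled to the right of 0 and CDT1A to the left; at 1 h no circle is filled.

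At 1 h, the first comparison with mock, no member was called. limma called 0 of 32 members, and 1 (RNR2A, 0.30 ± 0.13, unadjusted p = 0.0377) had an unadjusted p under 0.05; among all loci, 0.187% were called (0.177% up and 0.00933% down) and 4.34% had an unadjusted p under 0.05 (2.33% up and 2.01% down). The differences ran from -0.15 for DPA to 0.30 for RNR2A with a median of 0.05, beside -0.01 over all loci, and 22 of 32 members (68.8%) lay above 0, as did 47.5% of all loci. After RNR2A, the members nearest to a call at 1 h were POLD1 (0.27 ± 0.13) and E2FA. The 95% intervals of all members at 1 h lay between -0.46 (E2FB) and 0.58 (RNR2A), and most were narrower, such as -0.14 to 0.24 for MCM3 and -0.17 to 0.24 for MSI1. RNR2A was the only member whose 1 h arrays all lay above mock (3.12% of members, beside 5.73% of all loci), and E2FA the only one whose 1 h arrays all lay below it (beside 5.4% of all loci). For CDT1A the difference at 1 h was -0.14 ± 0.09.

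Between 1 h and 4 h, CDT1A fell as given above and the other 31 members were not called, beside 1.85% of all loci called (0.887% up and 0.966% down). An unadjusted p under 0.05 was reached by 4 members upward and 2 downward, beside 20.8% of all loci (10.2% up and 10.6% down). The median of the members was 0.12, beside 0.02 over all loci, and 22 of 32 lay above 0, as did 55.1% of all loci. The 4 h arrays all lay above the 1 h arrays for 8 members (25.0%, beside 11.7% of all loci), namely MCM3, MCM4, ORC4, ETG1, RNR1, TSO2, POL2A and E2FA, and all below them for CDC6 and CDT1A (6.25%, beside 10.1%). RNR1 differed by 0.44 ± 0.12 (limma adjusted p = 0.0819) and ORC4 by 0.34 ± 0.12 (adjusted p = 0.134). The comparisons at 4 h and 1 h share their mock arrays, so agreement between them adds no separate evidence.

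The 42 other replication genes listed are further licensing, fork and nucleotide genes that are not members, and 34 of them were measured. At 4 h, limma called 5 of the 34 up and 0 down (14.7%, beside 10.8% of all loci, 5.53% up and 5.23% down). An unadjusted p under 0.05 was reached by 12 genes upward and 0 downward, beside 13.1% and 13.7% of all loci. The 4 h arrays all lay above mock for 13 genes (38.2%, beside 14.3% of all loci). They all lay below it for 0 genes, beside 13.4% of all loci. The median was 0.22, beside 0.01 over all loci, and 29 genes (85.3%) lay above 0, as did 52.1% of all loci. The 5 that rose were TK1B, the second thymidine kinase gene, RPA2B, a subunit of the single-strand binding complex RPA, FEN1, the nuclease that trims Okazaki fragments, LIG1, the ligase that joins them, and RFC2, a subunit of the clamp loader. TK1B (AT5G23070) had levels of 6.94, 6.60 and 6.45 at 4 h, 6.07, 6.20 and 6.09 at 1 h, and 5.79, 5.60 and 5.98 in mock. The 3 groups of TK1B did not overlap, and it rose at 4 h by 0.87 ± 0.13 (limma adjusted p = 0.00569), a 1.83-fold rise that passed in all 17 alternative settings. Its paralog TK1A stood at -0.21 at 4 h, and whether the paralogs differed in their response was not tested. FEN1 (AT5G26680) had levels of 7.15, 6.87 and 6.80 at 4 h, 6.60, 6.45 and 6.55 at 1 h, and 6.55, 6.28 and 6.40 in mock, and rose by 0.53 ± 0.11 (limma adjusted p = 0.0164). RFC2 (AT1G63160) had levels of 8.427, 8.452 and 8.356 at 4 h, 7.953, 7.972 and 8.105 at 1 h, and 8.022, 8.084 and 7.995 in mock, and rose by 0.38 ± 0.08 (adjusted p = 0.0162). For both genes the 4 h arrays lay above all 6 others, and RFC2 alone of this list was also called against 1 h, at 0.40 ± 0.08 (adjusted p = 0.0399). LIG1 rose by 0.35 ± 0.08 (adjusted p = 0.0255) and RPA2B by 0.57 ± 0.14 (adjusted p = 0.029). The GINS genes PSF1, PSF2 and SLD5 (0.16, 0.24 and 0.23) and the E2F-like genes DEL2 and DEL3 (both 0.27) were not called. At 1 h limma called 0 of the 34, beside 0.187% of all loci. TK1B alone (0.33 ± 0.13) had an unadjusted p under 0.05, beside 2.33% of all loci upward.

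Apart from TK1B, these calls were also lost when some single arrays were left out. Without replicate 1 at 4 h, 3 of the 34 were called, without replicate 2 at 4 h 3, without replicate 3 at 4 h 8, and without mock replicates 1, 2 and 3 in turn 3, 2 and 1. Upward calls over all loci moved as well. They numbered 695, 738 and 1912 without replicates 1, 2 and 3 at 4 h in turn, beside 1185 in the reported fit. FEN1 had an adjusted p of 0.0739 without mock replicate 2 and 0.0594 without mock replicate 3, and RFC2 one of 0.0513 without replicate 2 at 4 h, 0.0503 without mock replicate 1 and 0.0627 without mock replicate 3. LIG1 was not called without replicate 1 or 2 at 4 h or without any 1 of the mock arrays (adjusted p 0.0604 to 0.0803), and RPA2B not without replicate 1 or 2 at 4 h or mock replicate 2 or 3 (0.0627 to 0.115). Against 1 h, RFC2 passed in 6 of the 17 alternative settings. Among the fits without 1 array it was called only without replicate 3 at 4 h (0.0146), and was otherwise at 0.0638 to 0.18.

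**Figure D4:**
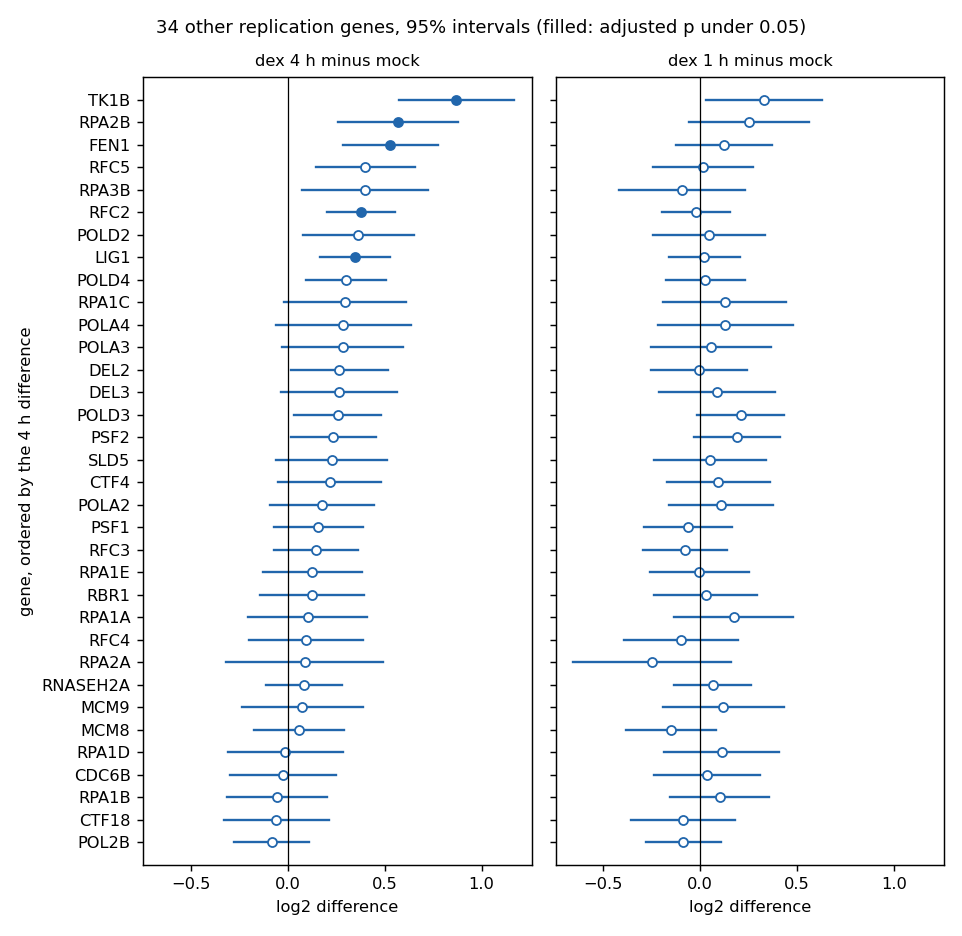
Log2 differences (horizontal axes) of the 34 other replication genes for 4 h minus mock and 1 h minus mock, with 95% intervals from the limma model and filled circles for adjusted p under 0.05. At 4 h, 29 of 34 points lie to the right of 0 and 5 are filled; at 1 h none is filled.

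Among the mock arrays, replication genes varied together. Mock replicate 1 was the highest of the 3 mock arrays for 22 of 32 members (68.8%) and for 23 of the 34 other replication genes, but for 35.3% of all loci. The median SD of the members was 0.118 at 4 h, 0.104 at 1 h and 0.142 in mock, beside 0.145, 0.10 and 0.10 over all loci. The median of the members relative to the mock mean was 0.16, 0.08 and 0.13 on the arrays at 4 h, 0.06, -0.01 and 0.09 at 1 h, and 0.13, -0.05 and -0.05 in mock. Mock replicate 1 thus lay within the range of the arrays at 4 h, and the groups overlapped. Without mock replicate 1 the median difference of the members at 4 h was 0.20, and MCM2, RNR1, TSO2 and POL2A were called up. Without mock replicate 2 it was 0.12 and without mock replicate 3 it was 0.11, in both cases with 0 members called up and CDT1A called down. Over all loci, upward calls at 4 h numbered 1185 in the reported fit and 403 to 1912 over the 17 alternative settings.

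**Figure D5:**
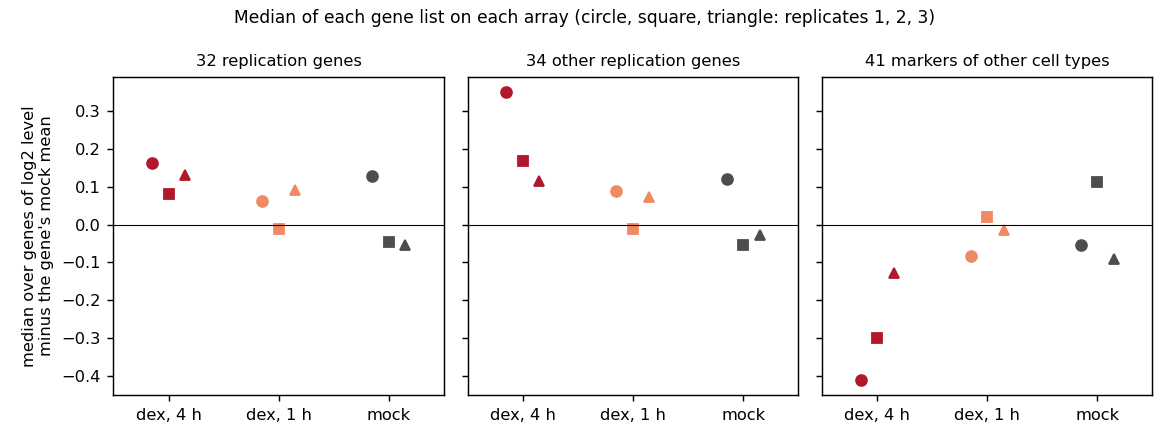
Each point is 1 array, and the vertical axis gives the median over a gene list of the log2 level minus the gene's mock mean, for the 32 members, the 34 other replication genes and 41 markers of other root cell types. Mock replicate 1 (0.13 for the members) lies among the arrays at 4 h (0.08 to 0.16), while the markers at 4 h (-0.41, -0.30 and -0.13) lie below all other arrays.

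Markers of other root cell types also differed from mock at 4 h, most of them downward. Of 42 listed, 41 were measured, and at 4 h 8 of these fell and 1 rose (22.0% called, beside 10.8% of all loci), with a median of -0.27. The 4 h arrays all lay below mock for 16 of the 41 (39.0%, beside 13.4% of all loci). The 8 that fell were RHD6 and RHD2 of the epidermis, ESB1 and SGN1 of the endodermis, and XCP1, TMO5, ACL5 and NAC086 of the vasculature, and the root cap gene FEZ rose. Some of these had low signal: ACL5 lay below the first quartile of all loci on 4 arrays, SGN1 on 3 and NAC086 on 2. Of the 12 vascular markers, 4 lay below it on every array at 4 h and 2 on every mock array. By tissue, the median at 4 h was -0.43 over 10 endodermis markers, -0.35 over 9 root cap markers, -0.21 over 10 epidermis markers and -0.09 over 12 vascular markers. The mean log2 level of the root cap markers ranged from 7.21 to 7.74 at 4 h, 7.41 to 7.86 at 1 h and 7.58 to 7.73 in mock. That of the epidermis markers ranged from 5.60 to 6.07 at 4 h, 5.93 to 6.08 at 1 h and 5.93 to 6.14 in mock. The endodermis markers ranged from 4.10 to 4.46 at 4 h, 4.60 to 4.74 at 1 h and 4.47 to 4.87 in mock, and the vascular markers from 4.20 to 4.26 at 4 h, 4.38 to 4.48 at 1 h and 4.33 to 4.43 in mock. Of the defining markers, SMB of the root cap, WER of the epidermis and MYB36 of the endodermis lay above the first quartile of all loci on all 9 arrays, and APL of the phloem lay below it on 2. At 1 h limma called 0 of the 41 markers, beside 0.187% of all loci, and 2 had an unadjusted p under 0.05, beside 4.34% of all loci. The median was -0.01, as it was over all loci. The part of these markers in the changes of the replication genes was not tested, and in sorted cells a change in the share of a cell type and a change in RNA per cell cannot be told apart.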

How the data were processed

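The authors deposited log2 values, 1 per probe set and array; RMA and limma 3.24.15 appear in the submitters' processing notes, without their roles. Array type, probe set definition and genome build were not given in the sources used. The table held 64 control probe sets and 21430 probe sets named by locus, 1 per locus; 21231 matched the TAIR10.1 gene table, which served only for names. Values were used as deposited, with no filter. One limma 3.58.1 model (R 4.3.3, lmFit and eBayes, 6 residual and 4.47 prior degrees of freedom) gave the 3 two-sided contrasts. Precision is limited by the number of arrays, with a median standard error of 0.108. The procedure was tested on simulated data with planted differences and independent noise, and the share of small differences it recovers is not given here. The members are a list of names with no threshold on values; they, the other lists and the tests were chosen with earlier results of these data known. Every member could be named, with full statistics for called members and the 3 with the smallest p in each contrast; from the other replication and S-phase chromatin lists, called genes were named (at most 6 in each direction), DDM1, ATXR5, the GINS genes, DEL2 and DEL3 after their values were seen. Sequences and promoter motifs were not analysed here. Alternatives were quantile normalization, median centring, array weights, leaving out loci whose mean level lay under the 40th percentile, the replicate number as a block, fitting only the 2 groups of a contrast, leaving out arrays, and eBayes with a trend and robust variances.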

Additional observations from a re-analysis of the deposited data

Results flagged for a closer look

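CDT1A stood out because its difference from mock was not the same at both times: the value at 4 h minus that at 1 h was -0.48 ± 0.09, tested as the contrast of 4 h with 1 h (limma adjusted p = 0.0388; 0.0172 to 0.179 over 17 alternative settings, of which 7 passed). The 3 arrays at 4 h all lay below the 3 at 1 h.

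The probe sets for the added poly-A control RNAs, which no comparison uses, gave a mean log2 level of 8.76 on replicate 1 at 4 h, against 6.17 to 6.41 in mock. Without this array 0 members were called up at 4 h against mock, and CDT1A was called down at -0.66 (limma adjusted p = 0.0103). Calls over all loci fell too, from 1185 to 695 upward and from 1120 to 514 downward. The loss of upward calls among the members was not particular to this array. The number of members called up was also 0 without mock replicate 2, without mock replicate 3 and with only the 2 groups fitted.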

How the results depend on the processing

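The called differences of members and other replication genes kept their sign under all 17 alternatives, as did 24 of the 32 members at 4 h against mock, 12 at 1 h against mock and 25 between the times; the others, none over 0.22 in size, changed sign in at least 1. At 4 h against mock, 3 members were called up in the reported fit, 5 when dim probe sets were left out (ORC4 and POLD1 in addition), 0 with only the 2 groups fitted, 1 when replicate 1 at 4 h and mock replicate 1 were left out together (chosen after seeing the data) and 0 to 6 without single arrays; 1 was called down in each of these. Their median ranged from 0.11 to 0.20 without single arrays. Of the other replication genes, 5 were called up in the reported fit, 2 with both arrays left out, and 1 to 8 without single arrays. At 4 h against 1 h, 0 members were called up in the reported fit, 1 with array weights and 0 to 2 without single arrays; 1 was called down in the reported fit, 0 with only the 2 groups fitted or both arrays left out, and 0 to 1 without single arrays; and 1 other replication gene was called up, against 5 with array weights, 0 with only the 2 groups, both arrays left out or the replicate block, and 0 to 6 without single arrays. The cause was not tested. At 1 h no alternative called a member, and the median was 0.01 to 0.09 without single arrays.

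Over all loci, calls at 4 h against mock numbered 1185 up and 1120 down, with ranges of 403 to 1912 and 239 to 2241; at 1 h, 38 up and 2 down (6 to 73 and 0 to 6); and between the times, 190 up and 207 down (1 to 1202 and 2 to 1606). Deviations of same-numbered arrays from their group means correlated at -0.131 to 0.273, and those of other pairs at -0.459 to 0.427, so the numbers were not taken as pairs. With the replicate block 4 members were called up and 1 down at 4 h against mock, with TSO2 at an adjusted p of 0.0595 and POLD1 and POL2A called, and 1160 loci were called up and 1180 down. The planned promoter motif counts were not run.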
